A study of Mus musculus with 6 samples.

Results

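The annexins are a family of proteins that bind acidic membrane phospholipids when calcium rises, and 10 annexin genes (Anxa1 to Anxa9 and Anxa11) were followed here among 19938 genes measured on whole-transcript mouse gene arrays. The genes were chosen by name, and each was read from the array row (a transcript cluster, the probes that cover 1 gene) with the highest mean over all 6 arrays among the rows paired with exactly 1 gene symbol. The choice of the family was made with earlier results of these arrays in view, among them the low values of Anxa8 in tumors of the kidney, so the comparison of the groups describes these genes and is no independent support for their difference.

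The arrays held RNA of tumors formed by Renca, a renal carcinoma line of BALB/c origin so that all tumors represent 1 cell line. In the intrakidney group, 3 BALB/c mice had received the cells in the outer cortex of a kidney. In the subcutaneous group, 3 other BALB/c mice had received them under the skin. All 6 tumors were excised at day 12, and each array is 1 mouse. The labels gave no genotype change, treatment, age or batch. Values are log2 intensities after RMA, which corrects background, normalizes arrays and summarises probes, and every difference below is intrakidney minus subcutaneous on that log2 scale. Since whole tumors were measured, fewer cells of a type and less RNA per cell cannot be told apart.

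Annexins share a conserved core that folds around calcium sites and differ in their amino-terminal tails, which carry the binding sites for partner proteins such as the S100 proteins. They take part in membrane repair, vesicle traffic, the assembly of the plasmin system on the cell surface and the masking of phosphatidylserine, and Anxa1 is also secreted as an anti-inflammatory ligand of formyl peptide receptors. In kidney, several annexins are proteins of tubule epithelium, and in tumors they are made by cancer cells, stroma and leukocytes alike.

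The annexin with the widest separation between the sites was Anxa8, and the one beside it on the lower side was Anxa11. The 250 bases before the annotated start of these genes are shown since they are the members with no overlap between groups and lower intrakidney values, and their promoters differ in the content of GC boxes. Sequences are from RefSeq on GRCm38.p6, plus strand, at chr14:34085729-34085978 for Anxa8 and at chr14:25841905-25842154 for Anxa11. Capitals mark matches to GGGCGG on either strand.
Anxa8: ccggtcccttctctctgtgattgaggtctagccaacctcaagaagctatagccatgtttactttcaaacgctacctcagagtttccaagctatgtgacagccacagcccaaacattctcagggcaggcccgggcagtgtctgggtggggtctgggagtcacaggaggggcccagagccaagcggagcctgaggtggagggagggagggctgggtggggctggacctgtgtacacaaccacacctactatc
Anxa11: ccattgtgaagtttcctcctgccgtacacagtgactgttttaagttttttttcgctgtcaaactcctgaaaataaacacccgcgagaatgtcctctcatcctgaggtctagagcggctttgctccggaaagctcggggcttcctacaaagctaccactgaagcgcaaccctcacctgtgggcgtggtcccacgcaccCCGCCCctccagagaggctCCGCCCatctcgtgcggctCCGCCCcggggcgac
Anxa8 had 0 matches to GGGCGG and 4 CpG dinucleotides in this window, while Anxa11 had 3 matches and 17 CpG dinucleotides at the same GC content of 58%. GGGCGG, the core of the GC box, was present in 32.7% of the 32851 promoter windows of this length in the table. The letters TATAAA (the core of the promoter element named after it, in 12.4% of all windows) and TGANTCA (AP-1 consensus, in 6.75%) were also searched on both strands and were in neither sequence. Of the 8 members with an entry in the table, 3 (Anxa2, Anxa7 and Anxa11) had a window with GGGCGG. The groups of Anxa2 and Anxa7 overlapped in expression. Anxa1, Anxa4, Anxa5 and Anxa9 had no GGGCGG, as Anxa8. TATAAA was in a window of 2 members (Anxa1 and Anxa2) and TGANTCA in 1, Anxa2, and no matches overlapped each other. A match is a description of the letters in these windows.

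Anxa8, first described as a vascular anticoagulant protein and made mainly by epithelia, was lower in every intrakidney tumor. Its log2 value (transcript cluster 10414065) was 8.47, 7.66 and 8.28 in intrakidney tumors 1, 2 and 3, against 10.15, 10.38 and 10.36 in subcutaneous tumors 1, 2 and 3. The groups did not overlap, and the highest intrakidney value lay well below the lowest subcutaneous one. Anxa8 fell by 2.16 ± 0.20 on the log2 scale (SE), with a 95% interval of -2.617 to -1.703 and an adjusted p of 0.0117 over all genes (limma, Benjamini-Hochberg). On the linear scale this is a 4.47-fold difference, the largest decrease of any of the 19938 genes. The spread was wider in the kidney, with an SD of 0.424 among intrakidney tumors and 0.123 among subcutaneous tumors (n = 3 each), and intrakidney tumor 2 was the lowest array. The adjusted p (limma) was 0.0766, 0.088 and 0.0778 without subcutaneous tumor 1, 2 or 3, when the difference was -2.231, -2.12 and -2.13, and it lay between 0.00473 and 0.0293 without intrakidney tumor 1, 2 or 3.

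**Figure D1:**
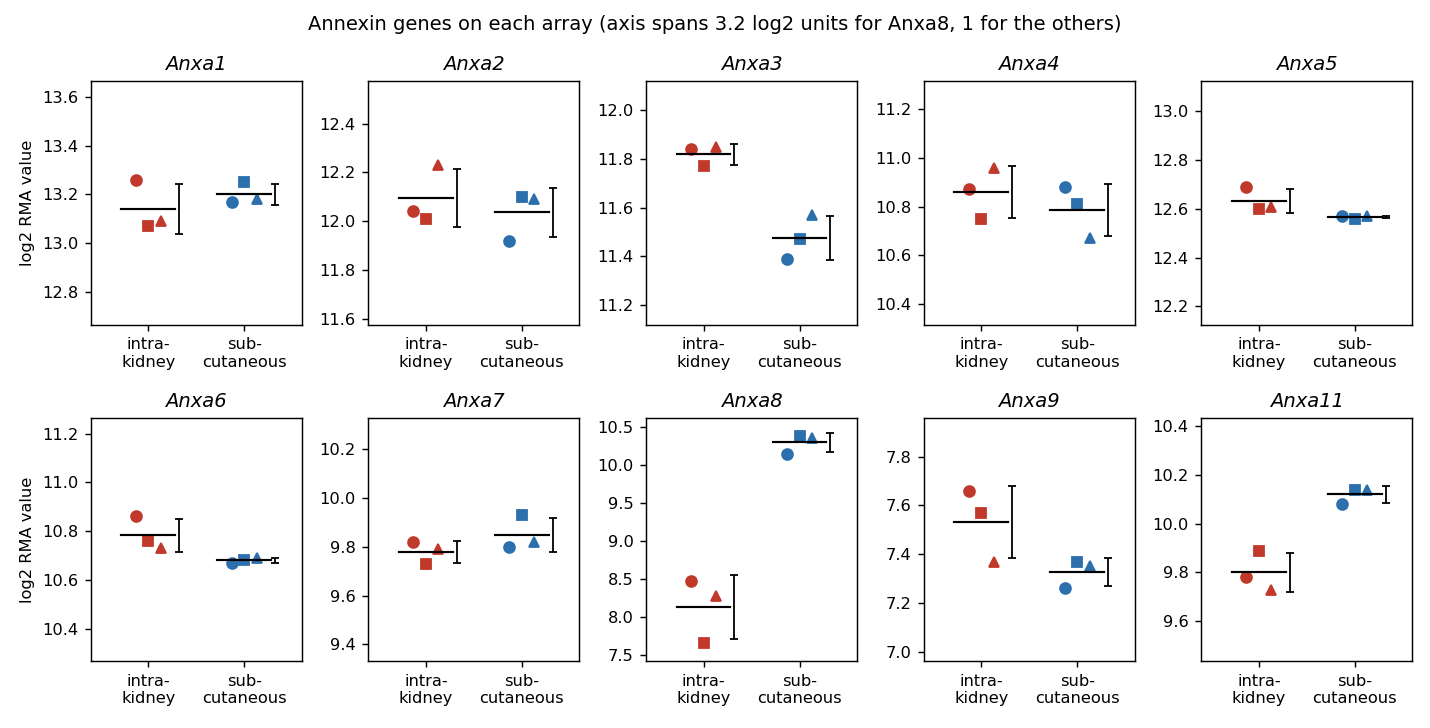
Log2 RMA value (y axis) of the 10 annexin genes on each array, intrakidney tumors in red at the left and subcutaneous tumors in blue at the right of each panel. Circles, squares and triangles are tumors 1, 2 and 3, the line is the group mean and the bar beside it 1 SD. Anxa8 lies between 7.66 and 8.47 in intrakidney and between 10.15 and 10.38 in subcutaneous tumors, a far wider gap than in any other panel.

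Of the 10 annexins, 1 passed the threshold of an adjusted p of 0.05, Anxa8, and 0 rose past it. Over all genes 0.231% passed, 0.13% higher and 0.1% lower in intrakidney tumors. The median difference of the 10 genes was 0.061, against -0.0058 over all genes tested, with 6 members higher and 4 lower. At an unadjusted p of 0.05, 1 member was higher (Anxa3) and 2 lower (Anxa8 and Anxa11), where 8.43% of all genes passed in either direction, 4.72% higher and 3.71% lower. In 6 members the groups did not overlap, 4 higher (Anxa3, Anxa5, Anxa6 and Anxa9) and 2 lower (Anxa8 and Anxa11), a state that 14.9% of all genes showed, 8.41% higher and 6.53% lower. These shares are descriptive, since the family was picked with the comparison known.

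**Figure D2:**
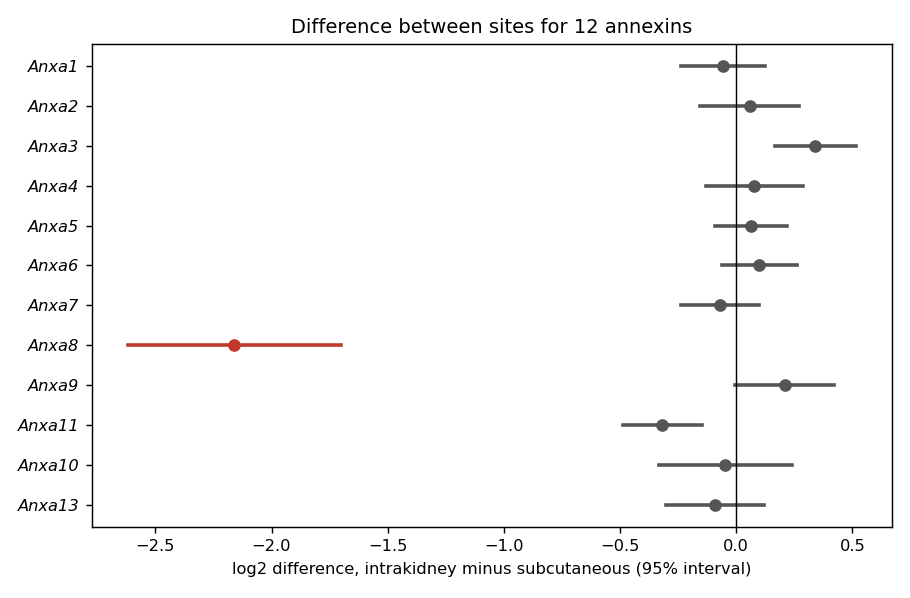
Difference in log2 value, intrakidney minus subcutaneous (x axis), for the 10 annexins followed here and for Anxa10 and Anxa13. Points are the fitted differences, bars the 95% intervals of the moderated fit, and red marks an adjusted p below 0.05. The interval of Anxa8 runs from -2.617 to -1.703, while those of the other 11 genes lie between -0.488 and 0.516.

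Anxa3 and Anxa11 had smaller differences of opposite sign that did not pass over all genes. Anxa3, an annexin of neutrophil granules and endothelium, had log2 values of 11.84, 11.77 and 11.85 in the intrakidney tumors, against 11.39, 11.47 and 11.57 in the subcutaneous tumors. All intrakidney arrays lay above all subcutaneous arrays, and the difference was 0.341 ± 0.075 (SE), a 1.27-fold ratio with a 95% interval of 0.166 to 0.516 and an adjusted p of 0.205 (limma). Only 3.35% of genes had a larger absolute difference.

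Anxa11, which binds S100a6 and in human cells tethers RNA granules to lysosomes, had log2 values of 9.78, 9.89 and 9.73 in the intrakidney tumors, against 10.08, 10.14 and 10.14 in the subcutaneous tumors. Every intrakidney tumor was below every subcutaneous tumor. The difference was -0.318 ± 0.073 (SE), with a 95% interval of -0.488 to -0.147 and an adjusted p of 0.229 (limma), so that a fall as large as that of Anxa8 lay outside the interval. With an intensity trend and a robust prior in the fit, Anxa3 passed (adjusted p = 0.0293, limma) and Anxa11 did not (adjusted p = 0.0586). With array weights both did (adjusted p = 0.0213 for Anxa3 and 0.0236 for Anxa11, limma).

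Anxa9, which in human lacks calcium-dependent lipid binding, had log2 values of 7.66, 7.57 and 7.37 in the intrakidney tumors, against 7.26, 7.37 and 7.35 in the subcutaneous tumors. Intrakidney tumor 3 and subcutaneous tumor 2 were level to the second decimal, with no overlap of the groups before rounding. The difference was 0.21, with a 95% interval of -0.003 to 0.423 and an adjusted p of 0.599 (limma).

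The annexins tied to phosphatidylserine and to membrane traffic varied little. Anxa5, the phosphatidylserine-binding protein used as a probe of dying cells, had log2 values of 12.69, 12.60 and 12.61 in the intrakidney tumors, against 12.57, 12.56 and 12.57 in the subcutaneous tumors. The groups did not overlap, but the difference was 0.065, with a 95% interval of -0.089 to 0.219. Anxa6, whose core is duplicated and which takes part in endocytosis and cholesterol transport, had log2 values of 10.86, 10.76 and 10.73 in the intrakidney tumors, against 10.67, 10.68 and 10.69 in the subcutaneous tumors. Intrakidney tumor 1 was the highest array for both genes, and the subcutaneous arrays lay close together, with an SD of 0.00703 for Anxa5 and 0.00928 for Anxa6. The difference of Anxa6 was 0.099, with a 95% interval of -0.062 to 0.26. Anxa6 was the only member with a second row paired with its symbol. That row (transcript cluster 10385993) read 6.69, 7.52 and 7.20 in the intrakidney tumors, against 7.09, 7.24 and 7.35 in the subcutaneous tumors. Its groups overlapped and its difference was -0.089, opposite in sign to the row used.

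Anxa4, an annexin of the apical side of epithelia, read 10.87, 10.75 and 10.96 in the intrakidney tumors, against 10.88, 10.81 and 10.67 in the subcutaneous tumors. Anxa7, which was named synexin for its part in membrane fusion and binds sorcin, read 9.82, 9.73 and 9.79 in the intrakidney tumors, against 9.80, 9.93 and 9.82 in the subcutaneous tumors. In both genes the groups overlapped, and the 95% intervals of the differences ran from -0.13 to 0.287 for Anxa4 and from -0.237 to 0.098 for Anxa7.

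Anxa1 and Anxa2, the best known members, had groups that overlapped. Anxa1, the glucocorticoid-regulated annexin, had log2 values of 13.26, 13.07 and 13.09 in the intrakidney tumors, against 13.17, 13.25 and 13.18 in the subcutaneous tumors. Intrakidney tumor 1 was the highest of the 6 arrays and the other intrakidney tumors were the lowest. The difference was -0.057, with a 95% interval of -0.238 to 0.124, and it was 0.059 without intrakidney tumors 2 and 3. Anxa2, which carries S100a10 and assembles plasminogen and its activator on the cell surface, had log2 values of 12.04, 12.01 and 12.23 in the intrakidney tumors, against 11.92, 12.10 and 12.09 in the subcutaneous tumors. Its groups overlapped, and the difference was 0.058, with a 95% interval of -0.154 to 0.269. Changes of the size seen for Anxa8 lie outside both intervals.

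The remaining annexins on the arrays were also measured. Anxa10 lay between 4.90 and 5.37 in intrakidney tumors and between 5.07 and 5.20 in subcutaneous tumors. Anxa13, an annexin of intestinal and kidney epithelium, lay between 5.80 and 6.01 in intrakidney tumors and between 5.87 and 6.07 in subcutaneous tumors. The groups overlapped in both genes, with differences of -0.046 and -0.092.

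Among themselves, the annexins fell into a gene with large and genes with small variation. The values of Anxa8 spanned 2.72 over the 6 arrays, and those of the other 9 spanned 0.13 (Anxa5) to 0.46 (Anxa3). When each gene was centred on its own mean, Anxa5 and Anxa6 were the most alike pair, with a root mean square difference of 0.023 over the 6 arrays, followed by Anxa1 and Anxa7 at 0.042. The member nearest to Anxa8 was Anxa11, at 0.966. The measure is not scaled to the variation of a gene, so genes that vary little lie near each other. The root mean square deviation from the gene's own mean was 0.044 for Anxa5, 0.064 for Anxa6 and 1.11 for Anxa8.

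By the same measure, the 5 genes of the whole array nearest to Anxa8 were Thbs2 (0.326), Aspn (0.376), Postn (0.377), Tnn (0.439) and C1qtnf3 (0.446). All 5 encode secreted proteins: Thbs2, Postn and Tnn are matricellular glycoproteins, Aspn is a small leucine-rich proteoglycan and C1qtnf3 is related to complement C1q. Thbs2 read 7.93, 7.73 and 8.52 in the intrakidney tumors, against 9.79, 9.72 and 9.92 in the subcutaneous tumors. Intrakidney tumor 2 was the lowest array for Thbs2, Aspn and Postn as for Anxa8, but not for Tnn or C1qtnf3. Intrakidney tumor 3 was the highest intrakidney array for Thbs2, Postn, C1qtnf3 and, by a small margin, Aspn, but not for Anxa8. The differences of the 5 genes ran from -1.838 (Tnn) to -1.445 (C1qtnf3). The measure rests on 6 arrays and is led by the gap between the groups, so a gene with a gap of similar size in the same direction tends to lie near Anxa8.

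**Figure D3:**
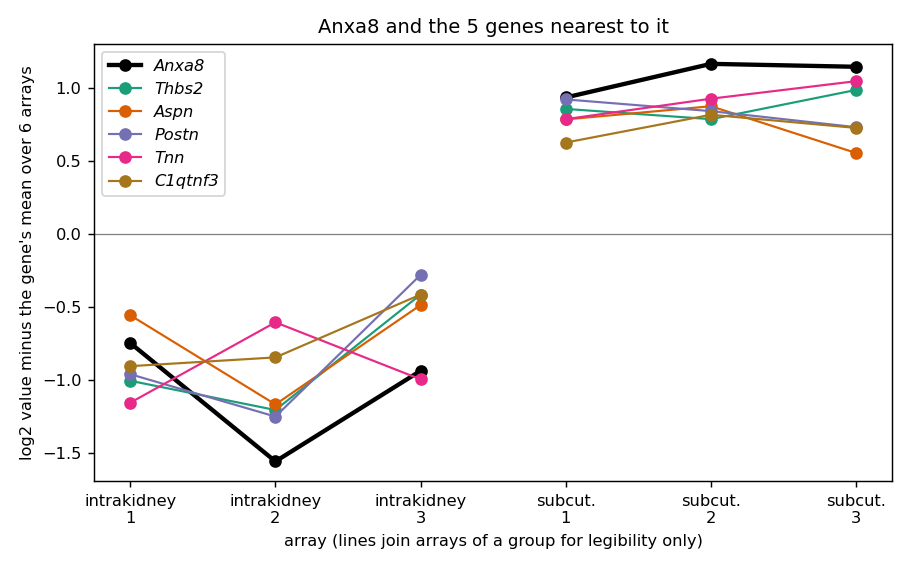
Log2 value minus the gene's own mean over the 6 arrays (y axis) for Anxa8, in black, and the 5 genes nearest to it, by array (x axis), intrakidney tumors at the left and subcutaneous tumors at the right. Lines join arrays of a group for legibility only. All 6 genes lie below their mean in intrakidney and above it in subcutaneous tumors, and Anxa8 has its lowest point in intrakidney tumor 2.

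Markers of the cells that a tumor sample may hold were read beside Anxa8. Of 14 fibroblast and matrix genes, 12 were lower, and Dcn (0.461) and Fap (0.055) were higher. Of the 12, 5 fell past the threshold, as 0.1% of all genes did: Postn, Tnc, Col6a1, Col6a2 and Col6a3. At an unadjusted p of 0.05, 9 of the 14 were lower and 0 higher (limma), against 3.71% and 4.72% of all genes. Groups did not overlap in 10, all lower, as in 6.53% of all genes. The mean level of the 14 genes was 8.77, 8.63 and 9.14 in intrakidney tumors 1, 2 and 3, against 9.49, 9.42 and 9.39 in the subcutaneous tumors. Their median difference was -0.665. With 1 array left out at a time, Tnc and Col6a1 passed in 3 of 6 fits, those without an intrakidney tumor, Postn in 1 (without intrakidney tumor 3), Col6a3 in 1 and Col6a2 in 0. The 5 genes thus shared with Anxa8 the gap between the groups. Within the intrakidney group the mean of the list was highest in tumor 3, while Anxa8 was highest in tumor 1. The part of these genes in the difference of Anxa8 was not tested. Keratinocyte genes, which would mark skin, had mean levels of 6.04 to 6.22 in intrakidney tumors and 6.10 to 6.25 in subcutaneous tumors, and 0 of 8 passed (limma, also 0 at an unadjusted p of 0.05). The keratin gene Krt14 of basal epidermis read 6.57 to 6.72 in intrakidney tumors and 6.49 to 6.64 in subcutaneous tumors, which overlapped.

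Kidney tubule genes had mean levels of 6.57, 7.0 and 7.45 in intrakidney tumors 1, 2 and 3, against 6.64 to 6.85 in the subcutaneous tumors. Of the 12 genes, 10 were higher and 2 lower, with a median difference of 0.238. The threshold was passed by 0, and at an unadjusted p of 0.05, 1 was higher and 1 lower (limma). At that p, 4.72% of all genes were higher and 3.71% lower. The water channel gene Aqp1 lay opposite to most of the list. It read 8.60, 7.87 and 7.94 in the intrakidney tumors, against 9.16, 9.07 and 9.29 in the subcutaneous tumors (difference -1.042, adjusted p = 0.114, limma). Its groups did not overlap, a state that 14.9% of all genes showed. Without intrakidney tumors 2 and 3, the difference of Anxa8 was -1.824 (adjusted p = 0.00873, limma). That fit rests on 1 intrakidney tumor, which was assumed to vary like the subcutaneous tumors, and the part of tubule genes in the difference of Anxa8 was not tested. Genes listed as mesothelial markers were higher in 6 of 6, with a median of 0.37. The threshold was passed by 0 of them, and 3 were higher at an unadjusted p of 0.05 (limma). Their part in the difference of Anxa8 was not tested. Their mean levels were 6.57, 6.75 and 6.81 in the intrakidney tumors, against 6.20 to 6.39 in the subcutaneous tumors.

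Genes listed as markers of renal epithelial tumor cells had mean levels that overlapped. They were 9.54 to 9.76 in intrakidney tumors and 9.68 to 9.75 in subcutaneous tumors, with a median difference of 0.015. Whole tumors were measured, so these values do not give the share of tumor cells in a sample. The renal lineage factor gene Pax8 read 10.08, 10.18 and 10.13 in the intrakidney tumors, against 10.15, 10.04 and 10.04 in the subcutaneous tumors. The simple epithelial keratin gene Krt8 read 13.16 to 13.22 in intrakidney tumors and 13.18 to 13.35 in subcutaneous tumors. The adhesion gene Cdh1 (E-cadherin) was the only 1 of the 8 with groups that did not overlap, a state that 14.9% of all genes showed. It read 9.09, 9.53 and 9.30 in the intrakidney tumors, against 9.78, 9.91 and 9.79 in the subcutaneous tumors (difference -0.516, adjusted p = 0.209, limma). The arrays carry no detection call, so absence of a marker could not be read from these values.

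Leukocyte and vessel genes were read beside Anxa1 and Anxa3. Neutrophil genes had mean levels of 6.58, 6.73 and 7.06 in the intrakidney tumors, against 6.43, 6.43 and 6.53 in the subcutaneous tumors. The threshold was passed by 0 of 8, and 3 were higher and 1 lower at an unadjusted p of 0.05 (limma). At that p, 4.72% of all genes were higher and 3.71% lower. Endothelial genes had mean levels of 8.20 to 8.23 in intrakidney tumors and 7.83 to 8.0 in subcutaneous tumors. At an unadjusted p of 0.05, 5 of the 8 were higher and 0 lower (limma). Groups did not overlap in 6, all higher, as in 8.41% of all genes. Only 1 of 8, the sialomucin gene Emcn, rose past the threshold (0.724, adjusted p = 0.046, limma), as 0.13% of all genes did. Emcn passed it in 0 of the 6 fits with 1 array left out (differences of 0.658 to 0.798). The mean levels of both lists were above the subcutaneous range in every intrakidney tumor, as were the values of Anxa3. Those of the mesothelial list and of the plasminogen list below were too, so the pattern was not particular to neutrophil and endothelial genes. Within the lists, 2 neutrophil genes and 1 endothelial gene were lower. The part of these lists in the values of Anxa3 was not tested. Macrophage genes had mean levels of 10.39 to 10.58 in intrakidney tumors and 10.34 to 10.43 in subcutaneous tumors, which overlapped, and 0 of 8 passed (limma, 1 at an unadjusted p of 0.05).

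**Figure D4:**
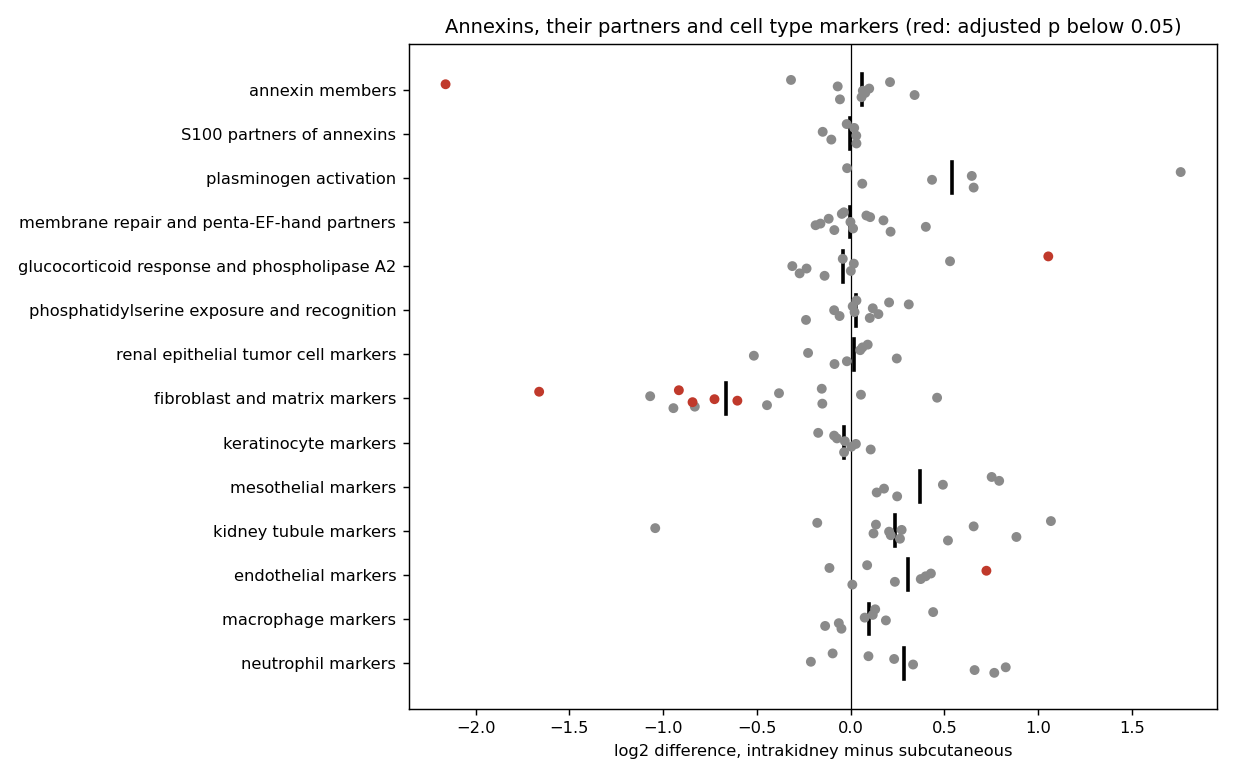
Difference in log2 value, intrakidney minus subcutaneous (x axis), of each measured gene in the annexin, partner and marker lists (rows). Points are genes, black bars are list medians, and red marks an adjusted p below 0.05 over all genes. Anxa8 is the leftmost point at -2.16, the fibroblast and matrix list has its median at -0.665 and the S100 list at -0.001.

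The S100 proteins, the calcium-binding partners that pair with annexin tails, stayed within a narrow range. Of 6 genes, 0 passed (limma, also 0 at an unadjusted p of 0.05), 0 had groups that did not overlap, and the differences ran from -0.149 to 0.031. S100a10, the partner of Anxa2, read 12.71, 12.64 and 12.72 in the intrakidney tumors, against 12.65, 12.68 and 12.64 in the subcutaneous tumors, a difference of 0.031. S100a11, the partner of Anxa1, read 11.96, 12.10 and 12.01 in the intrakidney tumors, against 12.08, 12.17 and 12.12 in the subcutaneous tumors, which overlapped (difference -0.103). S100a6, a partner of Anxa11, differed by 0.03 and S100a4 by -0.149.

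The plasminogen system, which Anxa2 and S100a10 assemble on the cell surface, had larger values in intrakidney tumors in 5 of 6 genes, with a median of 0.54. The threshold was passed by 0, and 3 were higher at an unadjusted p of 0.05 (limma), as 4.72% of all genes were. Plaur, the urokinase receptor gene, read 9.96, 9.85 and 10.21 in the intrakidney tumors, against 9.29, 9.39 and 9.40 in the subcutaneous tumors, a difference of 0.646 (adjusted p = 0.084, limma). Serpinb2, an inhibitor of urokinase, read 8.22, 6.58 and 7.48 in the intrakidney tumors, against 5.46, 5.82 and 5.71 in the subcutaneous tumors, a difference of 1.76 (adjusted p = 0.17, limma). The groups overlapped in neither gene, while 14.9% of all genes had groups that did not overlap. The urokinase gene Plau differed by 0.434 (adjusted p = 0.228, limma). Plg, which encodes plasminogen and is expressed in liver and kidney, stood out in 1 array, intrakidney tumor 3, at 7.97, against 5.70 and 6.07 in the other tumors of its group and a subcutaneous range of 5.71 to 6.20. That tumor also had the highest level of kidney tubule genes, whose part in the value of Plg was not tested.

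Of 13 genes of membrane repair and of the penta-EF-hand partners of Anxa7 and Anxa11, 0 passed (limma), and the median was -0.001. At an unadjusted p of 0.05, 3 were higher and 1 lower (limma), against 4.72% and 3.71% of all genes. Ehd2, a membrane-shaping protein gene of caveolae, read 9.72, 9.47 and 9.71 in the intrakidney tumors, against 9.24, 9.14 and 9.33 in the subcutaneous tumors (difference 0.401, adjusted p = 0.252, limma). Dysf, which encodes the repair protein dysferlin, differed by 0.213 (adjusted p = 0.448, limma). Ahnak, a scaffold of Anxa2 and S100a10, read 10.35, 10.35 and 10.36 in the intrakidney tumors, against 10.57, 10.58 and 10.48 in the subcutaneous tumors (difference -0.187, adjusted p = 0.492, limma). In 6 of the 13 genes the groups did not overlap, 3 higher (Dysf, Ehd2 and Capn2) and 3 lower (Ahnak, Ahnak2 and Cav1), a state that 14.9% of all genes showed. Capn2, a calpain gene, differed by 0.175, the sorcin gene Sri by -0.047, and Pdcd6 and Pef1, the penta-EF-hand genes, by 0.104 and 0.084.

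Among 9 genes of the glucocorticoid response and of phospholipase A2, the context of Anxa1, 1 rose past the threshold and 0 fell (limma). Over all genes 0.13% rose past it and 0.1% fell. At an unadjusted p of 0.05, 2 were higher and 1 lower (limma), against 4.72% and 3.71% of all genes. Groups did not overlap in 2 higher and 2 lower genes of the list, as in 8.41% and 6.53% of all genes. Hsd11b1, which regenerates active glucocorticoid, read 8.65, 8.61 and 8.63 in the intrakidney tumors, against 7.53, 7.74 and 7.46 in the subcutaneous tumors, a rise of 1.054 (adjusted p = 0.0111, limma). Its adjusted p was 0.0766 without subcutaneous tumor 1 and 0.0508 without subcutaneous tumor 3, with differences of 1.031 and 0.997, and 0.0653 without intrakidney tumors 2 and 3 (limma). Pla2g4a, the cytosolic phospholipase A2 gene, whose enzyme Anxa1 can inhibit, read 8.59, 8.32 and 8.26 in the intrakidney tumors, against 8.02, 7.74 and 7.82 in the subcutaneous tumors (difference 0.53, adjusted p = 0.191, limma). The glucocorticoid-induced gene Tsc22d3 lay the other way, at 8.25, 8.16 and 8.33 in the intrakidney tumors, against 8.57, 8.60 and 8.39 in the subcutaneous tumors (difference -0.272, adjusted p = 0.423, limma). Fkbp5, another glucocorticoid-induced gene, differed by 0.001 and Dusp1, which encodes a phosphatase of MAP kinases, by -0.311. The median of the list was -0.042.

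Genes that expose or recognise phosphatidylserine, the lipid that Anxa5 binds, included 0 past the threshold among 11 (limma), with a median of 0.031. At an unadjusted p of 0.05, 2 were higher and 1 lower (limma), against 4.72% and 3.71% of all genes. Timd4, a phosphatidylserine receptor gene of resident macrophages, read 6.32, 6.18 and 6.48 in the intrakidney tumors, against 5.93, 6.07 and 6.05 in the subcutaneous tumors (difference 0.31, adjusted p = 0.408, limma). The scavenger receptor gene Stab1 differed by 0.205 and Ano6, which encodes a lipid scramblase, by -0.238. Each had groups that did not overlap, a state that 14.9% of all genes showed. Gas6, the bridging ligand of the TAM receptors, differed by 0.148 and its receptor gene Axl by -0.088.

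The call of Anxa8 depended on settings. It passed in the fit as described and in 11 of 17 other settings, the exceptions being every row tested, the replicate block, a threshold of 0.01 and the 3 fits without a subcutaneous tumor, and its direction was the same in 17 of 17, where its difference ran from -2.328 to -1.824. A direction that the choice of a gene with separate groups already fixes is no sign of stability.

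**Figure D5:**
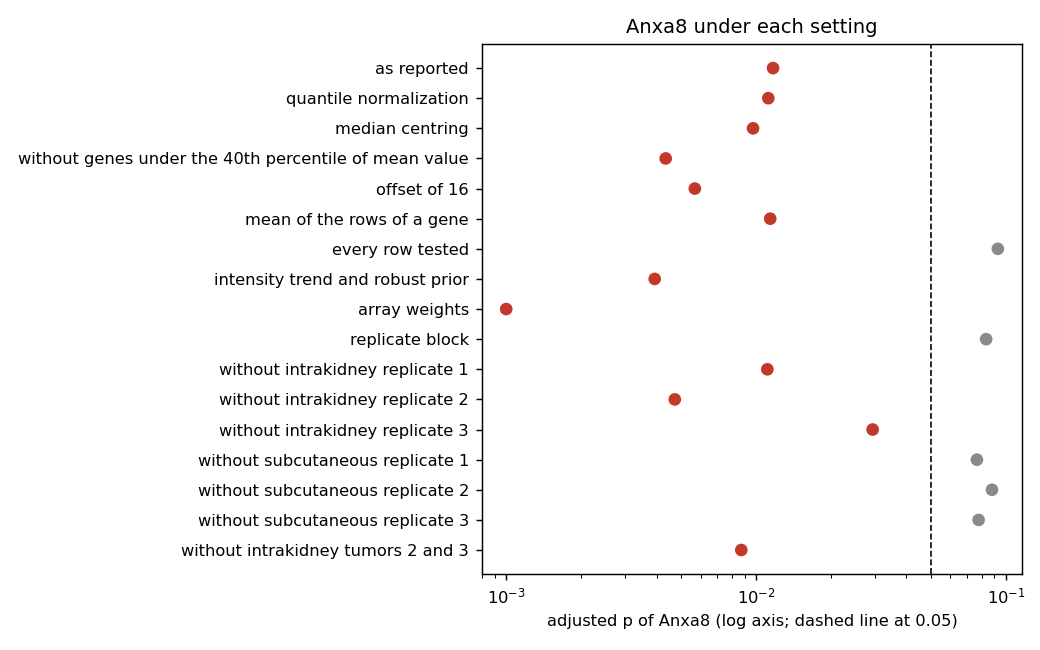
Adjusted p of Anxa8 from limma (x axis, log scale) in the fit as reported and under each other setting at the threshold of 0.05 (rows), which is the dashed line. Red points lie below the threshold and grey points above it. The points above it are those of every row tested, the replicate block and each fit without a subcutaneous tumor, between 0.0766 and 0.0929.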

How the data were processed

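The authors deposited log2 intensities per transcript cluster, for which the submitters' processing notes name RMA and affy. Versions, probe set definition and genome build are not given in the sources used here. That the scale is log2 was read from the range (2.31 to 15.07), and array medians lay between 7.08 and 7.11. RMA compresses changes of dim rows. Of 35512 rows, the platform annotation paired 21789 with 1 gene symbol, which gave 19938 genes, each read from its row with the highest mean. The comparison used limma 3.58.1 under R 4.3.3 (lmFit, eBayes with a constant prior, two-sided, Benjamini-Hochberg over all genes, threshold 0.05). The code was run on simulated arrays with independent normal noise. These held no array or batch effects, so they cannot show how the fit behaves where such effects exist. Precision is limited by the number of arrays.

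The members, lists, settings and comparison were chosen with earlier results of these data known. Named genes were the members, the other annexins, up to 4 genes of each partner list by adjusted p and every one past the threshold, and the 5 genes nearest to Anxa8. Markers and further partner genes were named after their values were seen. Fpr1, Fpr2 and Fpr3 had no row of their own and were not analysed here. Promoter sequences matched 8 of the 10 members by symbol.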

Additional observations from a re-analysis of the deposited data

How the results depend on the processing

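Limits: 3 arrays per group, no batch information and no detection calls. Anxa8 differed by -2.16, and by -2.161 to -2.096 in the other fits to all 6 arrays and -1.824 without intrakidney tumors 2 and 3. Its adjusted p (limma) was 0.0929 when every row was tested and 0.0834 with the replicate number as a block, and it also missed a stricter threshold of 0.01. The replicate numbers mark separate mice. Deviations from the group means of same-numbered tumors correlated across genes at 0.37, -0.16 and 0.1. The highest value, 0.43, was that of intrakidney tumor 2 with subcutaneous tumor 3. With 3 arrays per group and no batch information, these values cannot decide whether arrays of the 2 groups shared a batch. Not every tumor correlated best with its own number. With each array left out the difference of Anxa8 ran from -2.328 to -1.922. The number of annexins past the threshold was 0 with every row tested, with the replicate block and at 0.01, 2 with an intensity trend and robust prior, 3 with array weights, and 0 to 1 with each array left out. Past the threshold in no setting, Anxa1 changed sign without intrakidney tumors 2 and 3 (0.059), and Anxa2 ran from -0.012 to 0.1 with each array left out.

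All genes past the threshold numbered 46, and 101 without dim genes, 74 with an offset of 16, 0 with every row tested, 138 with the intensity trend, 624 with array weights, 0 with the replicate block, 2 to 33 with each array left out, 30 without intrakidney tumors 2 and 3, and 5 at 0.01. Partner and marker genes past it numbered 7, and 0 with every row tested, 11 with the intensity trend, 25 with array weights, 0 with the replicate block, 0 to 8 with each array left out, 4 without intrakidney tumors 2 and 3, and 1 at 0.01. The array weights were 2.571 for intrakidney tumor 3 and 3.549 for subcutaneous tumor 2, and 0.351 to 0.756 for the others.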
